A study of Mus musculus with 4 samples.

Results

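The ion channel genes described here were all protein-coding genes in the deposited tables whose symbol begins with Kcn, Cacn, Scn, Trpa, Trpc, Trpm, Trpv, Ano, Asic, Gabr, Gria, Grik, Grin, Grid, Chrn, P2rx, Clca, Clcn, Hcn or Aqp. Symbols beginning with Anos, and Kcnmb1 and Grina, were left out. The rule found 21 genes of the 1142 that the tables list. The tables came from RNA sequencing of 4 tumour samples of female mice: 2 with a miR-9 knockout (knockouts 1 and 2) and 2 without it (controls 1 and 2). All 4 carried the MMTV-PyMT transgene, in which a mouse mammary tumour virus promoter drives the middle T antigen of polyomavirus, on a mixed C57BL/6 background, and controls were littermates. Per the labels, exon 1 of miR-9 was the part knocked out and the knockout mice obtained were heterozygous (miR-9+/-). Whether the tumours were homozygous, the age of the mice, any restriction of the knockout to a cell type, and the number of animals behind a sample are not given in the labels, so p-values measure the spread between these samples, which may be technical.

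Ion channels are membrane proteins that let chosen ions pass, and they help set the membrane potential, the cell volume and the calcium signals of a cell. The symbol rule also takes in the aquaporins, which are water channels. Most are built from a pore-forming subunit and accessory subunits that place or tune the pore. Voltage-gated potassium, sodium and calcium channels are best known from nerve and muscle. The epithelial sodium channel and the aquaporins move salt and water across epithelia such as that of the mammary gland, and several potassium and TRP channels are studied in tumour cells. miR-9 is a microRNA that represses messenger RNAs by pairing its seed, bases 2 to 8, with matching sites, most often in the 3' UTR.

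Each value is a read count that the authors scaled by a size factor of its sample, and is called normalised reads below. The tables hold genes whose group means were 2-fold apart or more, which makes them a selection on this same comparison. Of the 1142 listed genes, 99.8% passed the limma test described in the processing notes at an adjusted p under 0.05 (61.3% higher and 38.5% lower in knockouts), and in 99.9% the groups did not overlap. A channel gene that passed, or that did not overlap, is therefore like nearly every gene in the tables, and the values below describe the size and order of the differences. Because of that selection, no adjusted p given below bounds the share of false calls. The 4 samples held 458335 to 697334 reads over the listed genes, and their relative depths lay between 0.885 and 1.11. No miR-9 locus transcript is among the listed genes, so the knockout itself was not checked here. All 6 listed markers of mammary luminal epithelium, Foxa1 and Esr1 among them, were detected in all 4 samples, and all were higher in the knockouts.

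The sequences that follow are shown because they are the microRNA that the knockout targets and the places in channel genes whose letters match it. Which locus was targeted is not given in the labels. Both arms of miR-9 are given as RefSeq records them for GRCm38.p6, with the seed in capitals. RefSeq places the same mature sequences at the Mir9-1, Mir9-2 and Mir9-3 loci on chromosomes 3, 13 and 7.
mmu-miR-9-5p: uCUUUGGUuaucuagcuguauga
mmu-miR-9-3p: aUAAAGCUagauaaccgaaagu

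In the longest 3' UTR annotated by GENCODE M21 (GRCm38), 7 of the 21 channel genes held the letters ACCAAAG, the match to bases 2 to 8 of miR-9-5p. That is 33.3% (exact 95% interval 14.6 to 57.0%), against 15.0% of the 1038 protein-coding listed genes with such a UTR. The channel genes also had longer 3' UTRs, with a median of 2073 bases against 1122.5. Among the 7, Kcnh1 and Kcnj2 were higher in the knockouts, and Kcnt1, Ano5, Aqp9 and Hcn2 were among the lower ones. The match was present in 2 of 11 higher channel genes (exact 95% interval 2.28 to 51.8%) and in 5 of 10 lower ones (18.7 to 81.3%), intervals that overlap widely. Among the listed protein-coding genes it was in 15.5% of the higher and 14.3% of the lower ones. The sites of these 6 genes are printed 5' to 3' on the strand of the gene, each with 10 flanking bases on either side and the seed match in capitals. Kcnj2 held 3 of them and the other genes shown 1 each.
Kcnj2, chr11:111073841-111073867, plus strand: ttaaatgaatACCAAAGataatgcaca
Kcnj2, chr11:111074062-111074088, plus strand: tgaaaagaacACCAAAGtctgatcaat
Kcnj2, chr11:111075281-111075307, plus strand: aagtaatcaaACCAAAGagtattcagt
Kcnh1, chr1:192507591-192507617, plus strand: aacctgccctACCAAAGacattgttct
Kcnt1, chr2:25917516-25917542, plus strand: aagggatgggACCAAAGggcctacact
Ano5, chr7:51598496-51598522, plus strand: cactatacagACCAAAGatatccctaa
Aqp9, chr9:71111874-71111900, minus strand: atcaaaggtgACCAAAGgttctgtttc
Hcn2, chr10:79735574-79735600, plus strand: cgtcatccacACCAAAGccatgcctcg

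An A directly after the match, which makes it an 8mer, followed the first and last sites of Kcnj2 and the sites of Kcnh1 and Ano5, so 3 of the 21 genes held an 8mer. The letters AGCTTTA, the match to bases 2 to 8 of miR-9-3p, were found in Kcnj2 once and in Scn7a at 2 places, and in no gene that was lower. In the listed protein-coding genes they occurred in 12.5%. Both Scn7a sites are printed in the same way because no site of the other arm was found in that gene. A match is a description of the letters and does not show that the microRNA acts there.
Scn7a, chr2:66675352-66675378, minus strand: tgacaagctcAGCTTTAgggtcagtct
Scn7a, chr2:66674585-66674611, minus strand: aatggactaaAGCTTTAccttattcta

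Of the 21 channel genes, 11 were higher and 10 lower in the knockouts (limma, Benjamini-Hochberg adjusted p 0.00263 to 0.0214). The higher share was 52.4%, against 61.3% of all listed genes. All 21 passed the minimum mean of 0.5 normalised reads, and in all 21 both knockouts lay on one side of both controls. The median log2 change, taken on log2(value + 1), was 2.61 for the higher and -2.17 for the lower channel genes, against 1.70 and -1.63 for the higher and lower genes of the whole table. A change of at least 2 on that scale was seen in 15 of the 21 (71.4%) and in 37.8% of the listed genes. The channel genes also had lower levels, with a median over genes of 73.4 normalised reads against 160.7 for all listed genes. Genes of like level were not compared, so the larger changes cannot be ascribed to channel genes as such. Of the 20 symbol stems in the rule, 8 had a listed gene. By the same rule GENCODE M21 holds 268 protein-coding genes, of which the tables list 7.84%, against 4.75% of the 21951 protein-coding genes of the annotation. The levels of the channel genes that are not in the tables were not analysed here.

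**Figure D1:**
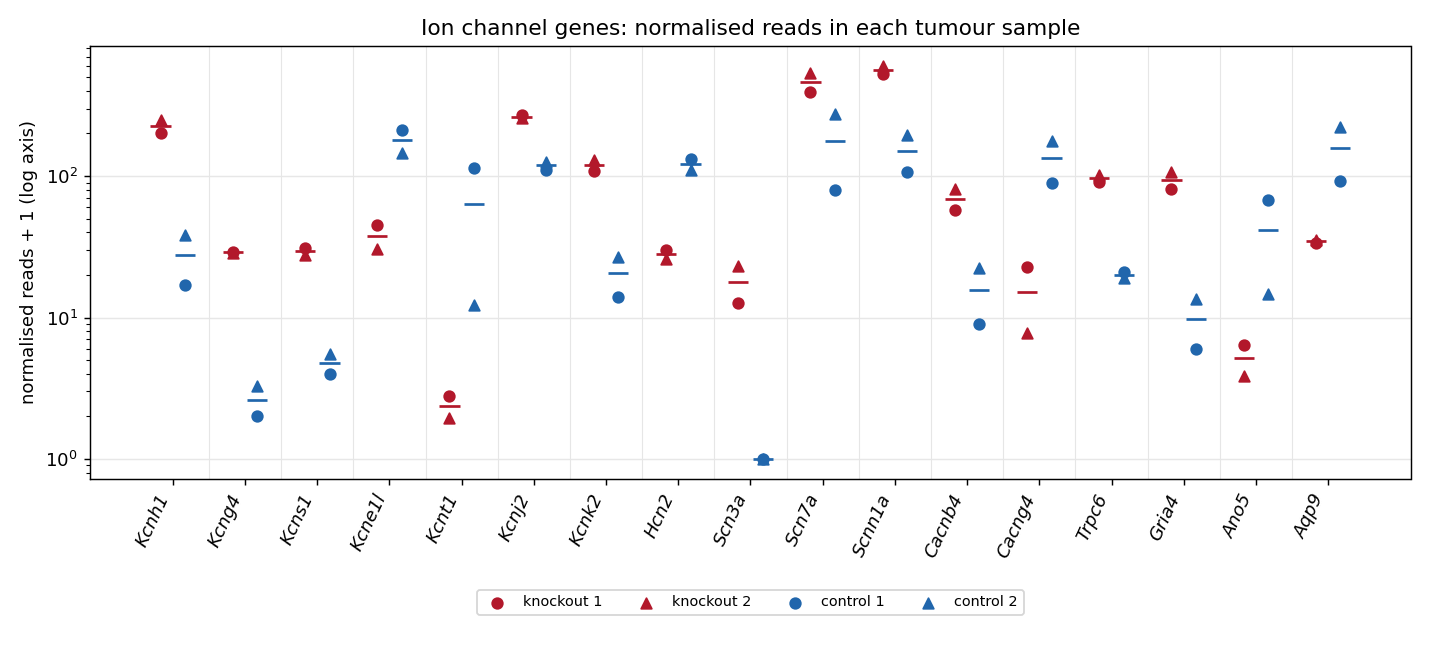
Normalised reads + 1 on a log axis for 17 of the 21 ion channel genes, with 1 symbol per tumour sample (circles replicate 1, triangles replicate 2) and a line at each group mean. In every gene the knockout symbols lie wholly above or wholly below the control symbols; Scn3a sits at 0 reads in both controls, and the control symbols of Kcnt1 and Ano5 are far apart.

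The potassium channel genes made up the largest family, with 9 Kcn genes listed of 93 in the annotation, 5 higher and 4 lower. Among the pore-forming voltage-gated subunits, Kcnh1 rose. It encodes an EAG-type channel, a family named after a fruit fly gene and studied in human tumours. Kcnh1 had 202 and 246 normalised reads in knockouts 1 and 2, against 16.0 and 37.3 in controls 1 and 2. The knockouts were close together and both stood well above the higher control, an 8.40-fold difference of the means (log2 change 3.13 ± 0.50 SE, limma adjusted p = 0.00263).

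Kcng4 and Kcns1 encode silent subunits, which form no channel alone and modify other voltage-gated potassium channels. Both were higher and both were near the limit of detection in the controls. Kcng4 had 28.0 and 27.8 normalised reads in knockouts 1 and 2, against 1.00 and 2.26 in controls 1 and 2. That was 60 reads in the knockouts and 3 in the controls, a ratio of 17.5 with a 95% counting interval of 5.71 to 87.3. Kcns1 had 29.8 and 26.8 normalised reads in knockouts 1 and 2, against 3.01 and 4.52 in controls 1 and 2, a 7.53-fold difference that rested on 7 control reads. The small control counts limit the precision of both folds.

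Kcne1l, listed by RefSeq with the synonym Kcne5, is a small accessory subunit of voltage-gated potassium channels. The tables give it the biotype protein_coding, although their description calls it a pseudogene. It had 44.3 and 29.7 normalised reads in knockouts 1 and 2, against 209 and 146 in controls 1 and 2. Both knockouts were far below both controls, a 4.80-fold fall (log2 change -2.24 ± 0.44 SE).

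Kcnt1, a sodium-activated potassium channel, had 1.81 and 0.959 normalised reads in knockouts 1 and 2, against 113 and 11.3 in controls 1 and 2. The knockouts held 3 reads in all and the controls 123, so the ratio of controls to knockouts was 46.8 (95% counting interval 15.7 to 230.1). Control 1 carried most of the control signal. Without it the log2 change fell in size to -2.39 (limma adjusted p = 0.0215), and without control 2 it was -5.61, against -4.00 with all samples.

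Kcnj2, Kcnk2 and Hcn2 act near the resting potential. Kcnj2 is an inward rectifier that holds the membrane at rest, and it had 267 and 258 normalised reads in knockouts 1 and 2, against 110.2 and 125 in controls 1 and 2. Replicates of each group were within a narrow range, and the mean was 2.23-fold higher (log2 change 1.15 ± 0.35 SE). Kcnk2, a leak channel of the TREK type that responds to stretch and lipids, had 108 and 128 normalised reads in knockouts 1 and 2, against 13.0 and 26.0 in controls 1 and 2. It was 6.05-fold higher, and both knockouts were above both controls. Hcn2, a pacemaker channel opened by hyperpolarisation and cyclic AMP, had 28.9 and 24.9 normalised reads in knockouts 1 and 2, against 130.3 and 109.6 in controls 1 and 2. Its groups were tight and far apart, a 4.46-fold fall (log2 change -2.11 ± 0.44 SE, limma adjusted p = 0.00537).

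The sodium channel genes numbered 4 of 18 annotated Scn genes, 3 higher and 1 lower. Scnn1a, the alpha subunit of the epithelial sodium channel, is the pore subunit through which epithelia take up sodium. It had 528 and 603 normalised reads in knockouts 1 and 2, against 105 and 194 in controls 1 and 2. Its mean ± SD was 565 ± 53.3 in knockouts and 149.8 ± 63.0 in controls (n = 2 each), a 3.77-fold rise (limma adjusted p = 0.00441). Per kilobase of gene model it was the most abundant of the 21 channel genes in the knockouts.

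Scn3a and Scn7a lie in the same cluster of sodium channel genes on chromosome 2, with Scn2a, Scn1a and Scn9a between them. Their gene models are 1105797 bases apart (GRCm38; Scn3a from 65457118 to 65567627, Scn7a from 66673425 to 66784914, both on the minus strand). The 3 genes between them were not in the tables. Scn3a, a neuronal channel strongest before birth, had 11.7 and 22.1 normalised reads in knockouts 1 and 2 and no read in either control. Set against 3 reads, the limit that no read in both controls allows, it was at least 10.6-fold higher, from 36 knockout reads. Scn7a, an atypical channel that senses sodium, had 395 and 535 normalised reads in knockouts 1 and 2, against 78.2 and 276 in controls 1 and 2. Its controls differed 3.53-fold, and control 2 came close to the knockouts. Without control 1 the log2 change was 0.73 and was not called by limma, against 1.64 with all samples and 2.54 without control 2.

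The listed calcium channel genes were 2 accessory subunits, and no pore-forming calcium channel gene was among the 21. Cacnb4, a cytoplasmic beta subunit that brings the pore to the membrane, had 56.9 and 79.6 normalised reads in knockouts 1 and 2, against 8.02 and 21.5 in controls 1 and 2, a 4.63-fold rise. In the GENCODE annotation 16.0% of its exonic bases are shared with A430018G15Rik on the opposite strand. Whether counting used strand is not stated, and the reads of the 2 genes cannot be told apart there. Cacng4, which tunes AMPA-type glutamate receptors and calcium channels, had 21.7 and 6.71 normalised reads in knockouts 1 and 2, against 88.2 and 177 in controls 1 and 2. Both knockouts were lower and they also differed from each other, with a mean fall of 9.35-fold. The limma call was lost without control 2 (adjusted p = 0.0535; range over the alternatives 1.38e-05 to 0.144).

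An antisense gene also shares exonic bases with Kcnk2 (12.2%), so the same limit holds for it. Gria4, which encodes a pore-forming AMPA receptor subunit, moved the opposite way to Cacng4. It had 79.5 and 106 normalised reads in knockouts 1 and 2, against 5.01 and 12.4 in controls 1 and 2. Both knockouts were far above both controls, a 10.7-fold rise (log2 change 3.37 ± 0.60 SE, limma adjusted p = 0.00326). The 16 control reads limit the precision of that fold.

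Trpc6 encodes a non-selective, calcium-permeable cation channel opened by diacylglycerol. It had 90.4 and 101 normalised reads in knockouts 1 and 2, against 20.0 and 18.1 in controls 1 and 2. The replicates of each group agreed closely, and the mean was 5.01-fold higher (log2 change 2.27 ± 0.47 SE). Gm32014, a long noncoding RNA gene on the opposite strand that overlaps 36669 bases of the Trpc6 gene but none of its exons, was also listed. It was at 17.2 and 33.6 normalised reads in the knockouts against 0 and 2.26 in the controls, and it was named after its values were seen.

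Ano5 and Aqp9 were both lower. Ano5, an anoctamin of muscle whose human counterpart is mutated in a muscular dystrophy, had 5.42 and 2.88 normalised reads in knockouts 1 and 2, against 67.1 and 13.6 in controls 1 and 2. The mean was 9.73-fold lower, and control 1 carried most of the control signal. The 9 knockout reads limit the precision of that fold. Without control 1 the log2 change was -1.54 and was not called by limma, without control 2 it was -3.77, and with all samples it was -2.66. Aqp9, an aquaglyceroporin that passes water and glycerol, had 32.5 and 34.5 normalised reads in knockouts 1 and 2, against 91.2 and 220.3 in controls 1 and 2. The knockouts were nearly equal and the controls differed 2.42-fold, with a mean fall of 4.65-fold (log2 change -2.05 ± 0.51 SE).

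**Figure D2:**
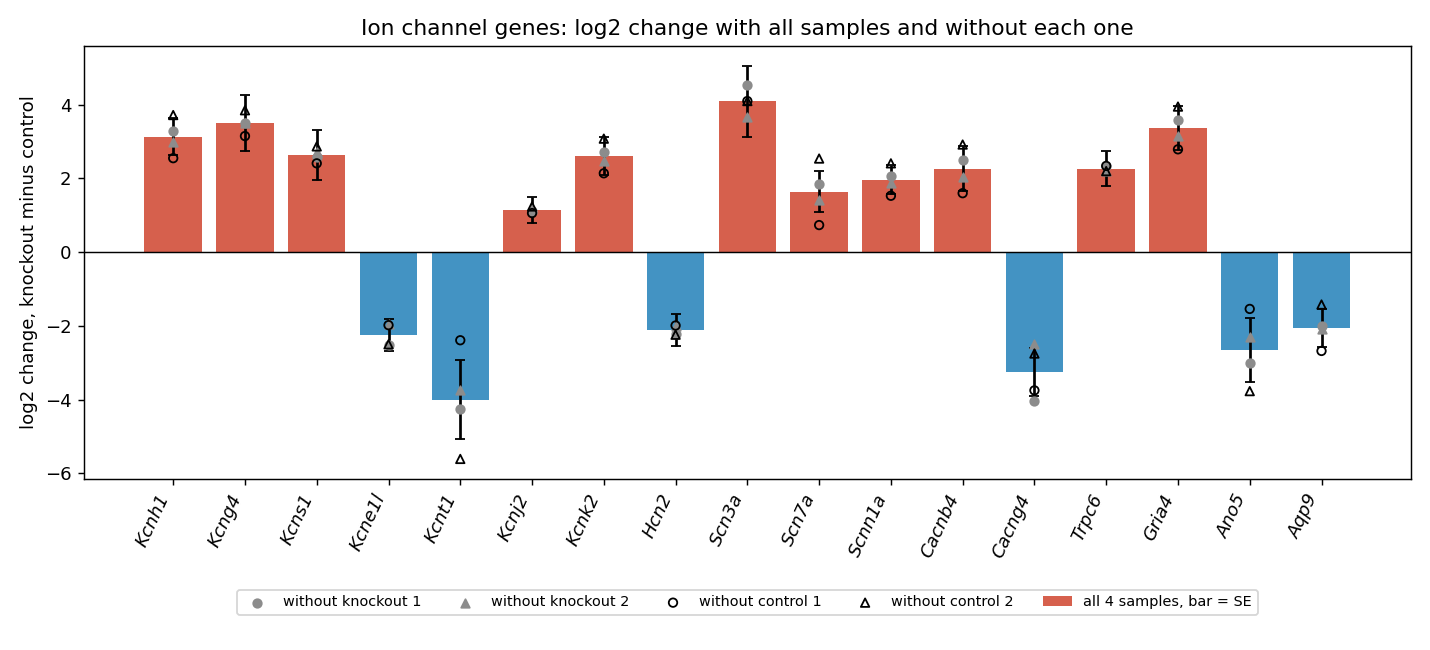
Log2 change (knockout minus control, on log2(value + 1)) of the same 17 ion channel genes with all 4 samples (bars, red higher and blue lower, error bars SE), and with each sample left out in turn (grey symbols without a knockout, open symbols without a control). No symbol crosses 0, which was fixed because the groups did not overlap, and the open symbols of Kcnt1 spread from -2.39 to -5.61.

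Levels can be compared between genes only per length. On the scale of normalised reads per kilobase of gene model, the knockouts ran from 137 for Scnn1a, 63.4 for Scn7a and 48.2 for Kcnj2 down to 0.530 for Ano5 and 0.146 for Kcnt1. In single knockouts Scnn1a was at 128 and 146 and Scn7a at 53.8 and 72.9, so the first place did not overlap with the second. Scn7a did not overlap with Kcnj2, at 49.1 and 47.4, either. In the controls Kcne1l led with 115, from 136 and 94.5, and it overlapped with none of the others. Among the others described here, Aqp9 (37.6), Hcn2 (37.5), Cacng4 (37.1) and Scnn1a (36.2) overlapped in their single samples. The order of the channel genes thus differed between the groups, as the plot of level per length shows.

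**Figure D3:**
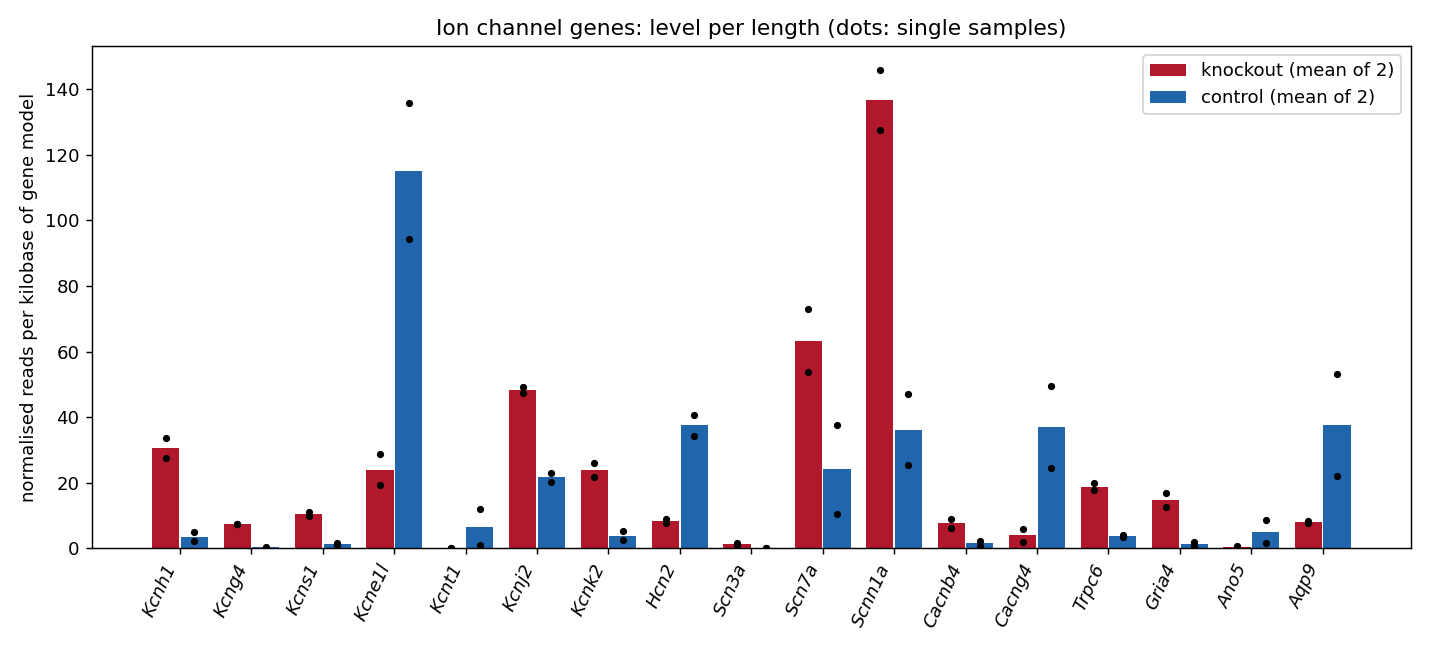
Normalised reads per kilobase of gene model for the same 17 ion channel genes, as the mean of 2 samples in knockouts and in controls, with dots for single samples. Scnn1a, Scn7a and Kcnj2 are the 3 tallest knockout bars, and Kcne1l is the tallest control bar.

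The controls were less alike than the knockouts (chi-square per degree of freedom over listed genes 13.3 between knockouts and 53.7 between controls). In 9 of the 11 higher channel genes control 2 lay above control 1 and so nearer to the knockouts, a share of 81.8%, and among all higher listed genes it was 81.1%. Among the 10 lower channel genes control 1 was the higher control in 6, against a share of 67.2% of all lower listed genes. Leaving out 1 sample moved the log2 change by more than the equivalent of 1.5-fold in 7 channel genes. Besides Kcnt1, Scn7a and Ano5 these were Cacng4 (-4.03 without knockout 1 and -2.48 without knockout 2), Aqp9 (-2.68 without control 1 and -1.42 without control 2), Cacnb4 (1.60 without control 1 and 2.92 without control 2) and Kcnh1 (3.72 without control 2). Without control 1, 18 of the 21 were called by limma and 86.7% of all listed genes, and without control 2, 19 and 93.7%. Without knockout 1 or without knockout 2, 1 of the 21, Scn3a, was called and 1.14% of the listed genes. In those fits the lone knockout was assumed to vary like the controls. Both controls of Scn3a had 0 reads, so no spread between its own samples entered its test. Its call there is therefore no sign of a firmer difference than in the other genes.

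The directions hold relative to the size factors of the deposit. Scaling on the listed genes themselves put the median log2 change over the 1142 genes at 0.48 with TMM and 0.13 with RLE factors, against 1.23 with the deposited ones. Of the listed genes called, 35.9% were higher with TMM and 24.3% with RLE factors, against 61.4% with the deposited ones. No channel gene changed sign under either. With edgeR on recovered reads and TMM factors, 18 of the 21 were called, against 60.4% of the listed genes, and with RLE factors 15, against 51.1%. All 10 lower channel genes were called under both, as were all 442 lower listed genes. The calls lost with TMM were Kcnj2, Cacnb4 and Scn7a, and with RLE these and Scnn1a, Trpc6 and Kcns1. Kcnj2 was at a log2 change of 0.06 with RLE factors, adjusted p = 0.894 by edgeR.

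**Figure D4:**
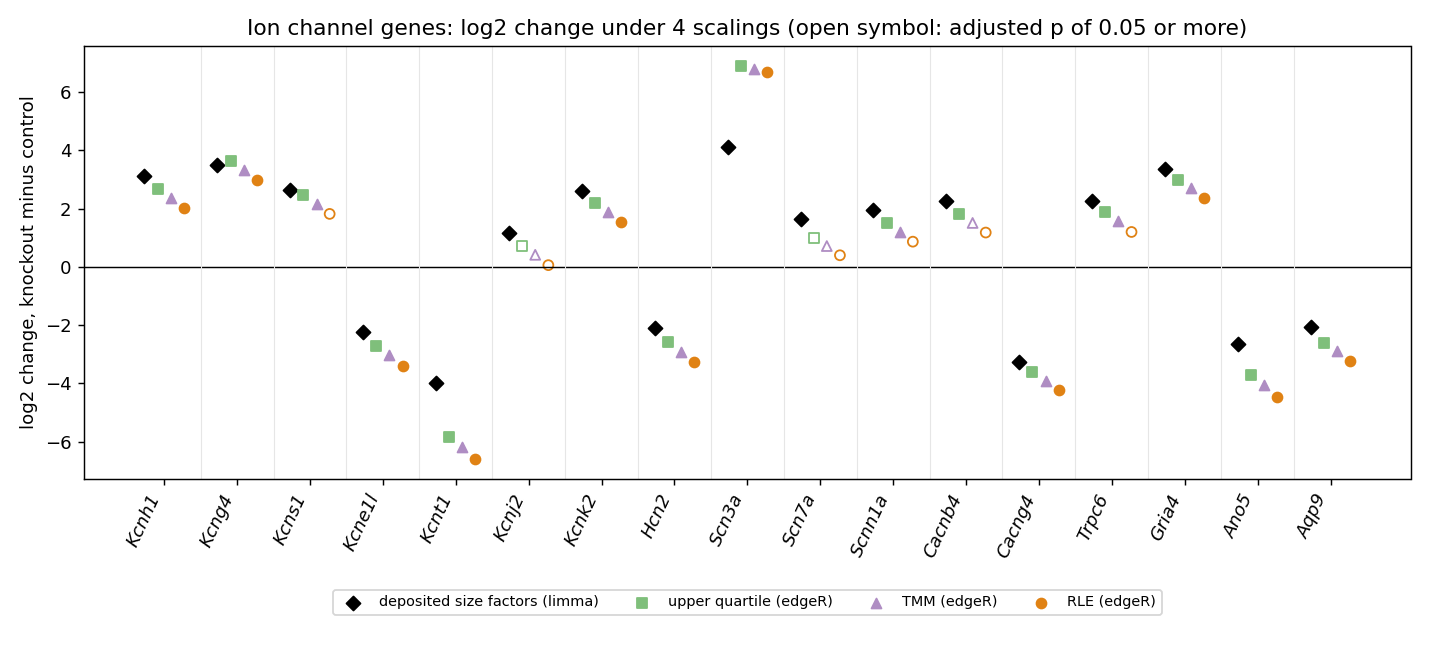
Log2 change (knockout minus control) of the same 17 ion channel genes under the deposited size factors (limma) and under upper-quartile, TMM and RLE factors computed from the listed genes (edgeR); open symbols have an adjusted p of 0.05 or more. Every series keeps its sign, lower genes move further from 0 and higher genes closer to it, except Scn3a under all 3 edgeR fits and Kcng4 with upper-quartile factors, genes with 0 and 3 control reads.

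Promoter windows were looked at because the 21 genes moved in both directions within families. RefSeq windows of 300 bases, from 250 before to 50 after the start (GRCm38.p6), were matched for 13 of the 21 genes, 19 windows in all. Their median GC content was 61.3%, against 58.7% for 987 windows of listed protein-coding genes and 52.7% for all 32851 windows. The 7 motifs, searched on both strands, were the GC box GGGCGG, the TATA box TATAAA, the single nuclear receptor element AGGTCA, the forkhead site TGTTTAC, the core of hypoxia response elements ACGTG, the STAT site TTCNNNGAA and the E-box CACCTG. None of these letters contains another motif of the set. The GC box was in 8 of the 19 windows (42.1%), against 50.1% of the windows of listed genes and 35.7% of all windows. No channel gene window held TATAAA (10% of the windows of listed genes and 13.6% of all windows), TGTTTAC (2.84% and 3.65%) or TTCNNNGAA (5.47% and 8.30%). ACGTG was in 3 windows (15.8%, against 20.3% of the windows of listed genes and 19.6% of all). AGGTCA was also in 3 windows (15.8%, against 12.9% and 16.3%), and CACCTG in 2 (10.5%, against 22.4% and 20.2%). The windows of Kcnh1, which rose, and Hcn2, which fell, are printed because both encode channels with a cyclic nucleotide-binding domain or its homologue and both hold a seed match. Capitals mark the letters searched for, which include GC boxes in both.
Kcnh1, chr1:192190527-192190826, plus strand: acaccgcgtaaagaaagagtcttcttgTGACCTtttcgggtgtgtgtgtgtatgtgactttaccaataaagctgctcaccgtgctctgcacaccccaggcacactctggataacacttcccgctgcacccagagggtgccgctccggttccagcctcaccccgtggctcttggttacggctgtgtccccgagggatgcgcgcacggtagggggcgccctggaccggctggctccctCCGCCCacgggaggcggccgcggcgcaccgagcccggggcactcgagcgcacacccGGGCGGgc
Hcn2, chr10:79716384-79716683, plus strand: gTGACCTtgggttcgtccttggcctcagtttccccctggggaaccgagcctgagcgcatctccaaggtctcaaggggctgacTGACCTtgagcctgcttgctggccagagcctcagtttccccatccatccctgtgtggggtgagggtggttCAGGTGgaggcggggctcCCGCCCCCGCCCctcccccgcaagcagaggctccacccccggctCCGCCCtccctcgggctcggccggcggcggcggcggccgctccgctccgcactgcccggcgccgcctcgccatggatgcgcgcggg

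The other genes of ion transport were described from 5 lists of 143 genes that the symbol rule does not reach. The tables held 16 of them, 7 higher and 9 lower, all called by limma. Of 36 genes of calcium release, entry and pumping, 4 were listed, 1 higher and 3 lower. Casq2, a calcium store protein of the heart, had 84.0 and 119.8 normalised reads in knockouts 1 and 2, against 17.0 and 15.8 in controls 1 and 2. Ryr1, the calcium release channel of skeletal muscle, was at 13.6 and 17.3 in the knockouts against 112 and 36.2 in the controls. Atp2a1, the calcium pump of fast muscle, was at 6.33 and 8.63 in the knockouts against 29.1 and 117 in the controls, and Mcoln3, a cation channel of lysosomes, was at 3.61 and 0.959 in the knockouts against 60.1 and 15.8 in the controls.

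Of 29 pump and cotransporter genes, 6 were listed, 4 higher and 2 lower. Slc12a2, the cotransporter that loads cells with sodium, potassium and chloride, had by far the most reads of the list, at 11397 and 12824 in the knockouts against 5006 and 5745 in the controls. It was 2.25-fold higher, with tight replicates, and Slc12a4, which carries potassium and chloride out, was 2.65-fold higher at 292 and 252 in the knockouts against 92.2 and 113 in the controls. Fxyd2, a small modulator of the sodium pump, was 6.25-fold higher, at 127 and 162 in the knockouts against 18.0 and 28.2 in the controls. Slc12a3, the thiazide-sensitive cotransporter of the kidney, and Atp12a, a proton and potassium pump, were 7.35-fold and 5.13-fold lower. In the list of 32 genes from other channel families the 1 listed gene was Ttyh1, of the tweety family, 4.97-fold lower.

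Of 20 gap junction and pannexin genes, 2 were listed. Gja1, the main connexin of many tissues, fell 2.44-fold, at 1608 and 1943 in the knockouts against 5246 and 3419 in the controls, and Gjc3, a connexin of myelinating glia, was at 94.0 and 66.2 in the knockouts against 4.01 and 30.5 in the controls. Of 26 channel partners, Dlg4, a synaptic scaffold, and Cnih2, an escort of AMPA receptors, were 2.48-fold and 2.06-fold lower, and Ank2, which anchors channels to the cytoskeleton, was 2.93-fold higher. Among the AMPA receptor genes named here, the pore subunit Gria4 was thus higher and its partners Cacng4 and Cnih2 lower. Without control 1 the limma calls of Ryr1, Slc12a3, Ank2 and Cnih2 were among those lost. With TMM or RLE factors 11 of the 16 were called and none changed sign, and Slc12a2, Slc12a4, Gjc3 and Ank2 were among those not called.

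**Figure D5:**
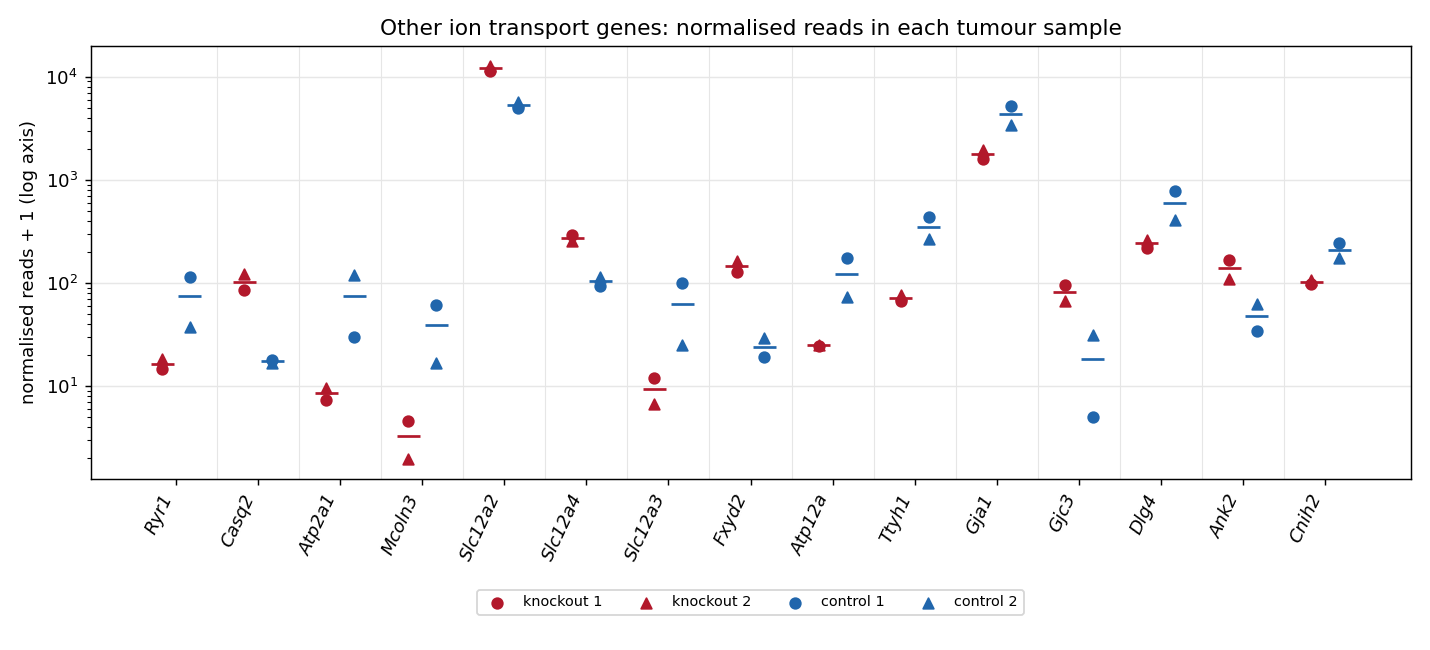
Normalised reads + 1 on a log axis for 15 of the 16 listed genes of other ion transport, with 1 symbol per tumour sample (circles replicate 1, triangles replicate 2) and a line at each group mean. Slc12a2 and Gja1 have the most reads, Slc12a2 higher and Gja1 lower in the knockouts, and the controls of Mcoln3, Slc12a3 and Gjc3 are far apart.

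Markers of cell types that use many of these channels moved in the same samples. In bulk tumour RNA, fewer cells of a type and less RNA per cell cannot be told apart. Of 18 skeletal muscle markers 10 were listed and all 10 were lower, with sums of 62.3 to 89.5 normalised reads in the knockouts against 728 to 1130 in the controls, and Myh1 and Pvalb had a knockout at 0. This list shares Ryr1 and Atp2a1 with the transport lists. Of 14 smooth muscle and myoepithelial markers 9 were listed, 8 higher and 1 lower, with sums of 29327 to 30589 in the knockouts against 6855 to 9636 in the controls. Of 14 luminal markers 6 were listed and all 6 were higher, with sums of 20545 to 24830 in the knockouts against 4691 to 8105 in the controls. Their part in the changes of the channel genes was not tested.

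For cells of nerves, 1 of 14 neuronal markers was listed: Nefh, a neurofilament, lower at 9.94 and 6.71 in the knockouts against 73.2 and 22.6 in the controls. Of 12 Schwann cell markers 4 were listed, 3 higher and 1 lower, with sums of 1510 to 1528 in the knockouts against 776 to 1533 in the controls. All 6 listed of 12 macrophage markers were higher (sums of 35961 to 43072 in the knockouts and 9683 to 16681 in the controls), but with RLE factors none was called and C1qa and C1qc changed sign. Both listed of 12 adipocyte markers were higher (sums of 129 to 468 in the knockouts and 12.0 to 33.9 in the controls). Of 12 salivary gland markers 3 were listed, 2 higher and 1 lower (sums of 227 to 262 in the knockouts and 65.1 to 91.5 in the controls, with Dcpp3 at 0 in knockout 2 and Prol1 at 0 in control 1), and none of 10 endothelial markers was. The part of these cells in the channel gene values was not tested.

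By position, 5 of the 21 channel genes lie on chromosome 2 (23.8%) and 4 on chromosome 9 (19.0%). Of the 268 genes that the rule takes from the annotation 9.33% lie on chromosome 2 and 7.09% on chromosome 9, and of the listed protein-coding genes 7.09% and 6.52%. Those on chromosome 2 were Kcnt1, which was lower, and Scn3a, Scn7a, Cacnb4 and Kcns1, which were higher. Of those on chromosome 9, Gria4 and Trpc6 were higher and Aqp9 was lower. The channel genes spanned a median of 62201 bases of genome, against 26115 for all listed genes, and their gene models had a median length of 5419 bases, against 3933. All 21 had the same coordinates in the tables and in GENCODE M21.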

How the data were processed

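RNA was sequenced from tumours on an Illumina NovaSeq instrument after TRIzol-type extraction and TruSeq library preparation, per the labels' protocols. The submitters' processing notes name Bowtie 0.12.2, hg38, GRCm38 and mm10 with no role for each. The counter, strand setting and criteria for listing a gene are not given in the sources. The deposited signal is each gene's read count over a size factor, as the values themselves show. Dividing by the value of 1 read gave whole reads for 100% of values in each sample, within 1e-06 reads. In control 1 that step, 1.00215, is so near 1 that recovered reads are less sure.

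The 4 tables were joined by gene identifier. The test was limma-trend (limma 3.58.1, R 4.3.3) on log2(value + 1) with genotype as the single term, two-sided, for all 1142 genes, each of which passed a minimum mean of 0.5, with Benjamini-Hochberg adjustment over all of them. Folds are ratios of group means and log2 changes come from limma, which understates low genes. The script was tested on simulated counts drawn without the selection on this comparison, so that check gives no error rate for the listed genes. Counting intervals are exact (95%) and, like floors, cover counting error only. All members, all listed genes of the transport lists and defining markers were to be named; the values of 4 members and 1 transport gene are not reported here, although counts include them. The gene lists cover 5 groups of other ion transport genes and 9 cell types. Members and lists were chosen with earlier results of these data known. The alternatives (pseudocounts, filters, thresholds, samples left out, a replicate block and other scalings) used edgeR 4.0.16 and DESeq2 1.42.0 on recovered reads, and Python 3.11.15 with scipy 1.17.1 for sequences and figures. Replicates differed by more than sampling noise.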

Additional observations from a re-analysis of the deposited data

How the results depend on the processing

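Over 17 alternatives, none of the 357 values of the 21 channel genes changed sign, 293 stayed on the same side of the threshold and 64 lost their call. Because the groups of all 21 genes did not overlap, only the fits with other scalings could have changed a sign. The filters removed no gene, and the other thresholds were applied to the main fit itself. Of those 64, 40 came from the 2 fits with a single knockout. At an adjusted p under 0.01, limma called 8 channel genes higher and 5 lower, and 387 higher and 197 lower of all listed genes. That is 13 of the 21 channel genes, against 51.1% of the listed genes. With TMM factors 248 listed genes were called higher, with upper-quartile factors 466, and with RLE factors 142, with 5 channel genes called higher. Leaving out each sample gave 1 to 11 channel genes higher and 0 to 8 lower, and 13 to 665 listed genes higher and 0 to 405 lower by limma. In the fit without knockout 1, 14 channel genes and 453 listed genes had an unadjusted p under 0.05, and without knockout 2, 8 and 392. edgeR with all samples and the deposited size factors called all 21 channel genes and all 1142 listed genes. The replicate block left 11 channel genes higher and 10 lower, and 700 and 442 of all listed genes. Deviations of same-numbered samples correlated at 0.0429 across genes, which cannot show whether such samples share a litter, batch or run. The pseudocounts, the filters, the log2 minimum of 1, limma without a trend and DESeq2 changed no call of a channel gene. The seed match was found in 7 genes as a 7mer, 3 as an 8mer and 12 as a 6mer, and in 7 with any annotated 3' UTR. The causes were not tested. Depth limits Scn3a, Kcng4, Kcns1, Kcnt1 and Ano5, which had 0 to 9 reads in 1 group.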
